A study of Mus musculus with 10 samples.

Results

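Pstpip2, B4galt6 and Camk1d are 3 genes of signalling and glycolipid synthesis, followed here in mouse liver that gained or lost the activity of SREBP transcription factors. They are 3 of 7542 genes to which the platform annotation assigns a probe set of their own, with 7 of the 12411 probe sets measured: 2 for Pstpip2, 3 for B4galt6 and 2 for Camk1d. The genes were chosen by their log2 difference between liver with a human SREBP-1a transgene and wild type liver, so their values in that comparison describe the choice and are given without a test.

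Expression was measured on Affymetrix MG_U74Bv2 oligonucleotide arrays in 5 pools of male mouse liver RNA, each made from 5 mice and hybridised to 2 arrays. TgSREBP-1a and TgSREBP-2 mice express transgenes, human SREBP-1a or human SREBP-2 in a nuclear form that needs no cleavage. They and their wild type littermates were 12 to 16 weeks old and spent 2 weeks on a diet high in protein and low in carbohydrate, which raises the transgenes' output. Scap-/- mice (Scap-/-;MX1-Cre) and their wild type controls were 10 to 12 weeks old and ate Teklad chow. Both of these groups had 4 injections of polyinosinic-polycytidylic acid, which switches on the Cre recombinase, and livers were taken 14 days after the last one. The Mx1 promoter responds to interferon in blood and immune cells as well as in hepatocytes. The 2 arrays of each group read the same pool, so errors and p-values here cover hybridisation only and not the spread between mice.

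SREBPs are membrane-bound transcription factors that, once cleaved, enter the nucleus and bind sterol regulatory elements in genes of cholesterol and fatty acid synthesis. SCAP carries their precursors from the endoplasmic reticulum to the Golgi, where the cleavage takes place, so liver without SCAP has little nuclear SREBP. Pstpip2 encodes an F-BAR protein that binds curved membranes and PEST-type tyrosine phosphatases, and is best known as a brake on inflammation in mouse myeloid cells. B4galt6 encodes a Golgi galactosyltransferase that turns glucosylceramide into lactosylceramide, the precursor of most complex glycosphingolipids. Camk1d encodes a calcium and calmodulin-dependent serine/threonine kinase, which upstream CaM kinase kinases activate.

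Camk1d was the 1 of the 3 genes with promoter windows in the RefSeq table used here (build GRCm38.p6), which holds 300 bases around a start site, 250 before it and 50 after it. The 2 windows are shown because the letters TCACNCCAC of a sterol regulatory element stand in one of them and not in the other. Both lie on the minus strand of chromosome 2, the first at chr2:5714713-5715012 and the second, a start site further downstream in the gene, at chr2:5675997-5676296. They are written 5′ to 3′ in the direction of transcription, and capitals mark TCACCCCAC, found on the opposite strand and therefore read here as GTGGGGTGA.
Camk1d first start site: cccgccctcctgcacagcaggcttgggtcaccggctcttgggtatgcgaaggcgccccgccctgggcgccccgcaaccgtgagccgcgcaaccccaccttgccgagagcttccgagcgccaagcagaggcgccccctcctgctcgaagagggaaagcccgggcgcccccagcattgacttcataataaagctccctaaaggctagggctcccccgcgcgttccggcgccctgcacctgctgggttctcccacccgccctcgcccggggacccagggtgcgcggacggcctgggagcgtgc
Camk1d second start site: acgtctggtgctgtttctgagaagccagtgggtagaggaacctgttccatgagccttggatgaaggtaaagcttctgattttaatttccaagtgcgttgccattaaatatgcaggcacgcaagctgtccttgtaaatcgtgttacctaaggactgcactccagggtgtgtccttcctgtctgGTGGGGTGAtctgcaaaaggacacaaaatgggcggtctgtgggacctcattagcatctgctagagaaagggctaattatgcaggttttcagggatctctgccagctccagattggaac
The match begins at base 183 of the second window, with 59 bases between it and the start site. Searched on both strands, the strict form TCACNCCAC occurred in 1.24% of 32851 windows and the looser form TCANNCCAC, which includes it and matched at the same place, in 4.18%. The Sp1 letters GGGCGG, present in 35.7% of windows, were found in both Camk1d windows, in the second with 33 bases between them and the start site. The NF-Y letters CCAAT, present in 37.4% of windows, occurred in the second window after the start site, and the E-box CACGTG, present in 7.15%, occurred in neither. A match of letters is a description and does not show binding, and which start site the liver used was not measured.

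The arrays of a pool correlated at 0.9871 to 0.9944 over all probe sets. The second TgSREBP-2 array had its closest match in the second wild type array of that study (0.9915), ahead of its own duplicate (0.9891), and all 4 arrays of the Scap study stood closest to an array of the other group. The brighter probe set of the targeted gene Scap had log2 values of 7.94 and 7.75 in Scap-/- liver and 9.24 and 8.89 in the wild type liver of that study. Its dim probe set had values of 3.56 and 3.63 in Scap-/- liver and 3.37 and 3.58 in wild type liver. Of 6 measured hepatocyte markers, the mean log2 value per array lay between 9.41 and 10.83 in all pools, against array medians of 5.625 to 5.662.

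Of the 3 genes Pstpip2 stood furthest above wild type in TgSREBP-1a liver, and it rose in TgSREBP-2 liver too. On its brighter probe set, 115818_at, it had log2 values of 9.89 and 9.68 on the TgSREBP-1a arrays, 8.97 and 8.76 on the TgSREBP-2 arrays, and 6.83 and 6.73 on the wild type arrays. The 3 pools did not overlap, with TgSREBP-1a highest, TgSREBP-2 next and wild type lowest. The log2 difference of TgSREBP-1a from wild type was 3.01 ± 0.12 (limma standard error, n = 2 arrays per group), or 8.05-fold, the second highest of all 12411 probe sets. In TgSREBP-2, Pstpip2 rose by 2.09 ± 0.12 on the log2 scale, or 4.25-fold (limma, adjusted p = 3.3e-05). A probe set was called where its adjusted p was under 0.05 and its fold change 1.5 or more. The rise was the seventh highest of all probe sets there, and the adjusted p stayed between 2.5e-06 and 0.0017 under 12 alternatives. Between the transgenic lines, TgSREBP-1a was higher by 0.92 ± 0.12 on the log2 scale, or 1.89-fold, with the TgSREBP-1a arrays that served to pick the gene.

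**Figure D1:**
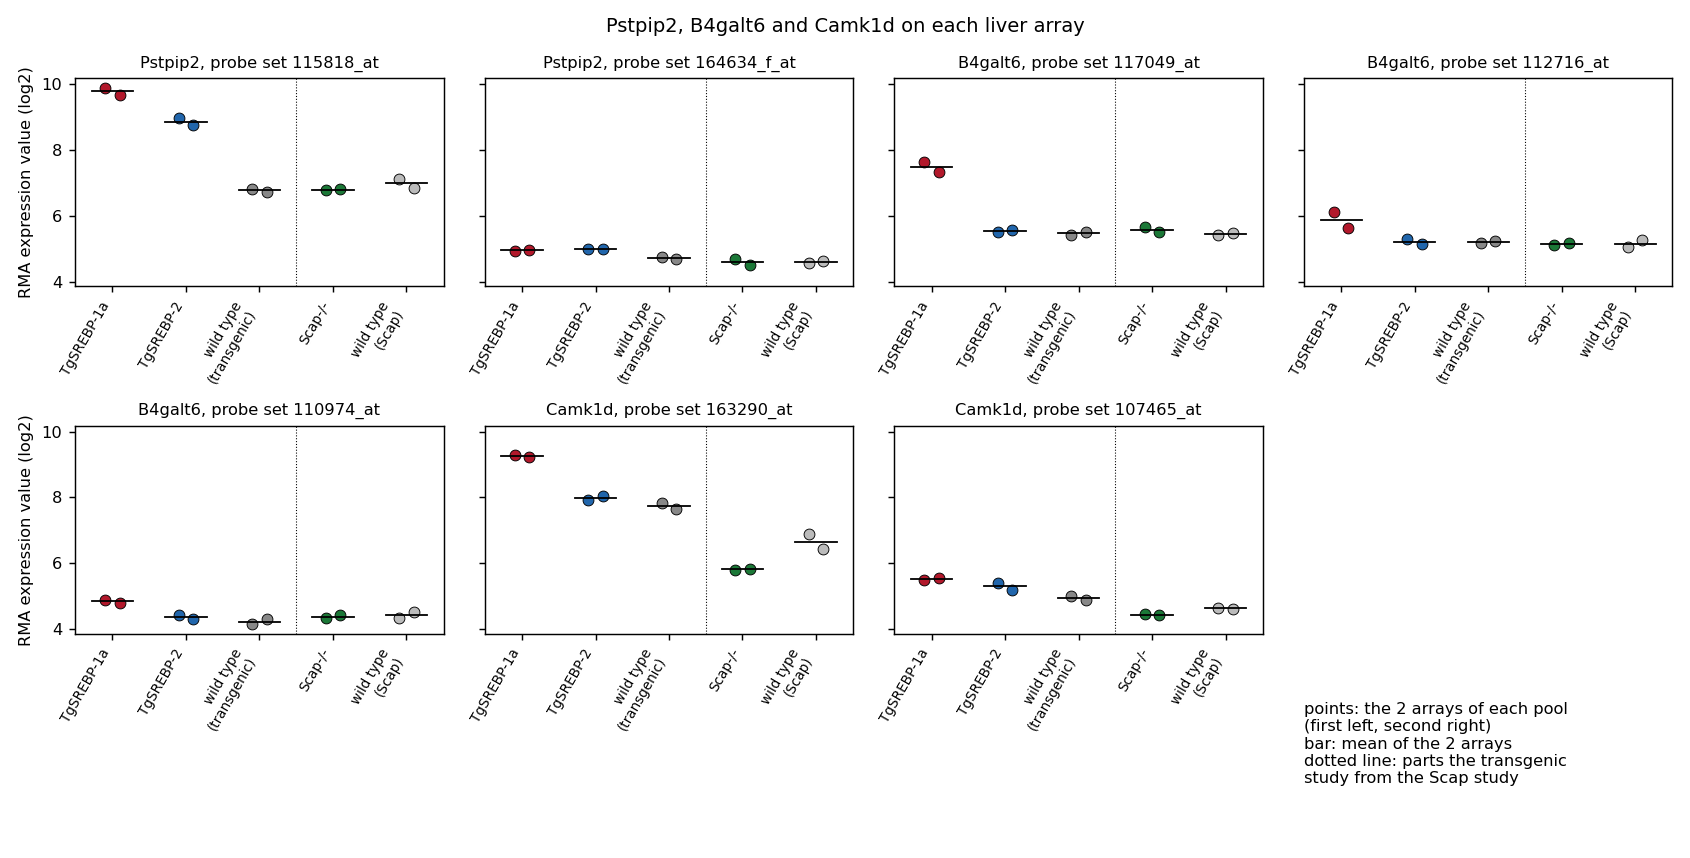
RMA log2 values (vertical axis) of the 7 probe sets of Pstpip2, B4galt6 and Camk1d on the 10 arrays. Each point is an array and each bar the mean of the 2 arrays of a pool, with the transgenic study left of the dotted line and the Scap study right of it. Pstpip2 115818_at steps down over TgSREBP-1a (mean 9.79), TgSREBP-2 (8.86) and wild type (6.78), B4galt6 117049_at stands out in TgSREBP-1a alone (7.47), and Camk1d 163290_at is lowest in Scap-/- (5.81).

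In the Scap study Pstpip2 115818_at read 6.77 and 6.82 on the Scap-/- arrays and 7.12 and 6.85 on the wild type arrays. The groups lay close together without overlapping, and the difference of -0.19 ± 0.12 did not pass the test (limma, adjusted p = 0.70, 95% interval -0.47 to 0.09). Wild type liver of the transgenic study differed from that of the Scap study by -0.21 ± 0.12 (limma, adjusted p = 0.66). Pstpip2 thus stood near 6.8 to 7.0 in the 3 pools without a transgene, 6.78, 6.79 and 6.98 on average, and neither tested difference among them passed.

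The other Pstpip2 probe set, 164634_f_at, was dim, at the 30.9 percentile of all probe sets by its mean against 91.5 for the brighter one. The suffix is Affymetrix's mark for probes that can match further members of a sequence family. Its log2 values were 4.94 and 4.96 in TgSREBP-1a liver, 5.00 and 5.00 in TgSREBP-2 liver, and 4.75 and 4.69 in wild type liver. Its difference was 0.23 ± 0.09 in TgSREBP-1a and 0.28 ± 0.09 in TgSREBP-2, where it did not pass the test (limma, adjusted p = 0.49). Both transgenic pools lay above wild type here too, without overlap, but by far less than on 115818_at. Averaged over both probe sets, Pstpip2 was higher by 1.62 ± 0.09 in TgSREBP-1a. In TgSREBP-2 that average rose by 1.18 ± 0.09, which still passed the test.

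Macrophages are the cells in which Pstpip2 is best known, so their markers stand beside these values. Of 24 listed markers 3 were measured (Cd163, Timd4 and Slc40a1). Their mean log2 value per array was 5.73 to 5.85 in TgSREBP-1a, 5.34 to 5.50 in TgSREBP-2 and 5.48 to 5.64 in wild type. None of the 3 was called by limma in TgSREBP-2 (0 at an unadjusted p under 0.05). With 0.5% of all probe sets called there, none of 3 is close to the background. The haemoglobin scavenger receptor Cd163 rose in TgSREBP-1a by 0.91 ± 0.15, while the other 2 markers differed by 0.07 and -0.27 and were not called. In pooled tissue a change in the share of a cell type and a change of RNA per cell cannot be told apart. No neutrophil marker was analysed here. Of the other marker lists, Ctrc (pancreatic acinar, 2.84-fold) and Tfrc (erythroid, 2.83-fold) rose in TgSREBP-2. Ctrc was the 1 called of 3 measured acinar markers, and Tfrc the 1 measured of 10 listed erythroid markers. The part of Ctrc and Tfrc in the Pstpip2 result was not tested.

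B4galt6 was high in TgSREBP-1a liver and near wild type in all other pools. Its brightest probe set, 117049_at, had log2 values of 7.63 and 7.32 on the TgSREBP-1a arrays, 5.50 and 5.56 on the TgSREBP-2 arrays, and 5.43 and 5.50 on the wild type arrays. The TgSREBP-1a arrays stood apart, while those of TgSREBP-2 and wild type touched. The difference of TgSREBP-1a from wild type was 2.01 ± 0.12 on the log2 scale, or 4.02-fold, the 22nd highest of all probe sets. That of TgSREBP-2 from wild type was 0.06 ± 0.12 (limma, adjusted p = 0.93), with a 95% interval of -0.20 to 0.32. TgSREBP-1a was higher than TgSREBP-2 by 1.95 ± 0.12, or 3.85-fold.

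The other 2 probe sets of B4galt6 were dimmer and also had TgSREBP-1a highest, with a smaller step over wild type. Probe set 112716_at had log2 values of 6.11 and 5.64 in TgSREBP-1a liver, 5.28 and 5.13 in TgSREBP-2 liver, and 5.16 and 5.24 in wild type liver. Those of 110974_at were 4.89 and 4.79 in TgSREBP-1a liver, 4.43 and 4.29 in TgSREBP-2 liver, and 4.14 and 4.31 in wild type liver. TgSREBP-1a lay above the other 2 pools without overlap on both, by 0.67 ± 0.15 and 0.61 ± 0.11 over wild type, whereas TgSREBP-2 and wild type overlapped on both. The TgSREBP-1a duplicates differed most on 112716_at, where their SD was 0.33. Without the first TgSREBP-1a array the difference there was 0.44, and without the second 0.91.

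In liver without SCAP, B4galt6 passed the test on none of its 3 probe sets. Probe set 117049_at read 5.66 and 5.50 in Scap-/- and 5.42 and 5.49 in wild type, a difference of 0.13 ± 0.12 (limma, adjusted p = 0.78, 95% interval -0.13 to 0.39). The other probe sets differed by -0.02 ± 0.15 and -0.06 ± 0.11. The wild type pools of the 2 studies differed by 0.02 ± 0.12 on 117049_at (limma, adjusted p = 0.98). Over the 4 pools other than TgSREBP-1a, the means of that probe set lay between 5.45 and 5.58.

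**Figure D2:**
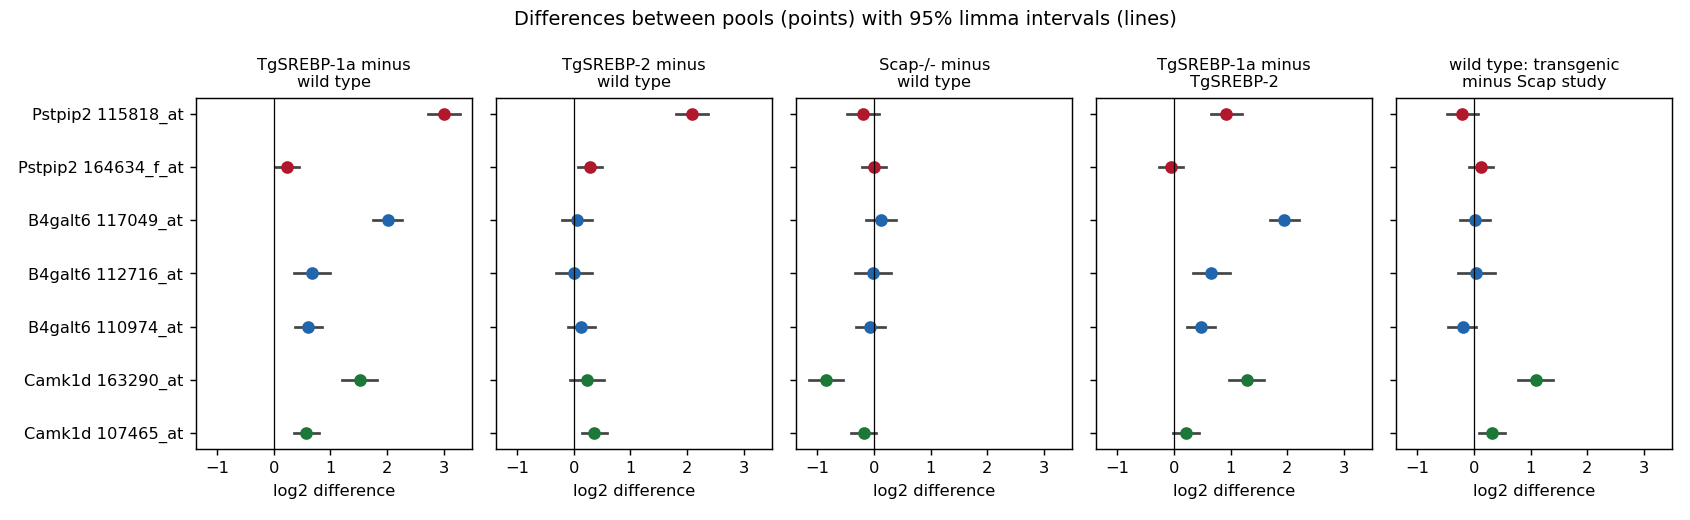
Log2 differences between pools (points) with 95% limma intervals (lines) for the 7 probe sets, in the 5 comparisons of the study. The genes were chosen by TgSREBP-1a minus wild type, so the intervals in both comparisons with TgSREBP-1a are no test. Pstpip2 115818_at stands at 3.01 in TgSREBP-1a and 2.09 in TgSREBP-2, B4galt6 117049_at at 2.01 and 0.06, and Camk1d 163290_at at 1.52 and 0.24. In Scap-/- the interval of Camk1d 163290_at (-0.85) alone leaves out 0, and between the wild type pools those of both Camk1d probe sets do (1.09 and 0.31).

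Camk1d was high in TgSREBP-1a liver and was not called in TgSREBP-2 liver. It was called in Scap-/- liver and between the wild type pools, on the brighter probe set alone. Its brighter probe set, 163290_at, had log2 values of 9.29 and 9.24 on the TgSREBP-1a arrays, 7.93 and 8.03 on the TgSREBP-2 arrays, and 7.83 and 7.66 on the wild type arrays. TgSREBP-1a stood far above the other 2 pools, which lay next to each other. The difference of TgSREBP-1a from wild type was 1.52 ± 0.14, or 2.87-fold, the 40th highest of all probe sets. In TgSREBP-2 the difference was 0.24 ± 0.14 and did not pass the test (limma, adjusted p = 0.72, 95% interval -0.07 to 0.54). TgSREBP-1a was higher than TgSREBP-2 by 1.29 ± 0.14, or 2.44-fold.

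In liver without SCAP, Camk1d 163290_at read 5.80 and 5.82, against 6.89 and 6.43 in the wild type pool. Both Scap-/- arrays lay below both wild type arrays, which differed from each other by more than the Scap-/- arrays did. Camk1d fell by 0.85 ± 0.14 on the log2 scale, to 0.557 of the wild type level (limma, adjusted p = 0.038). This fall was known from earlier results of these data and is no independent support. The call ended without the first Scap-/- array (adjusted p = 0.13), without the second (0.33) and without the first wild type array (0.21), and with only the 4 arrays of the comparison in the fit (0.53). The adjusted p ranged from 0.0043 to 0.53 over 12 alternatives, while the difference stayed between -1.07 and -0.51. Markers of pancreatic acinar cells moved in the same comparison, and of 15 listed 3 were measured. Their mean log2 value per array was 6.32 to 6.43 in Scap-/- and 8.02 to 8.23 in wild type. Cpb1 and Cela3b fell, and Ctrc was not called. The part of these cells in the Camk1d result was not tested.

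The wild type pools, which carry neither a transgene nor a deletion, differed in Camk1d as well. Probe set 163290_at stood higher in transgenic-study wild type liver than in Scap-study wild type liver by 1.09 ± 0.14, or 2.12-fold (limma, adjusted p = 0.0086), the twelfth highest of all probe sets. The call ended without the first array of that pool (adjusted p = 0.11), without the second (0.06) and with only the 4 arrays of the comparison (0.13). Diet, age, injections and breeding differ between these pools together and cannot be told apart. Of 3 measured pancreatic acinar markers, Cela3b was also higher there, by 1.61 ± 0.16. The other 2 were not called, and the 3 had a median difference of 0.88 and a lowest of 0.15.

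The dimmer Camk1d probe set, 107465_at, gave the same order of the 5 pools, with a smaller step over wild type in TgSREBP-1a and a larger one in TgSREBP-2. Its log2 values were 5.48 and 5.54 in TgSREBP-1a liver, 5.41 and 5.20 in TgSREBP-2 liver, and 5.01 and 4.87 in wild type liver. In the Scap study they were 4.47 and 4.41 in Scap-/- and 4.65 and 4.60 in wild type. No neighbouring pools overlapped. Its difference was 0.57 ± 0.10 in TgSREBP-1a. In TgSREBP-2 it was 0.36 ± 0.10 (limma, adjusted p = 0.31), in Scap-/- -0.18 ± 0.10 (limma, adjusted p = 0.69) and between the wild type pools 0.31 ± 0.10 (limma, adjusted p = 0.32), none of which passed the test. The mean of both probe sets in Scap-/- was lower by 0.51 ± 0.10 and did not pass either (limma, adjusted p = 0.10).

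**Figure D3:**
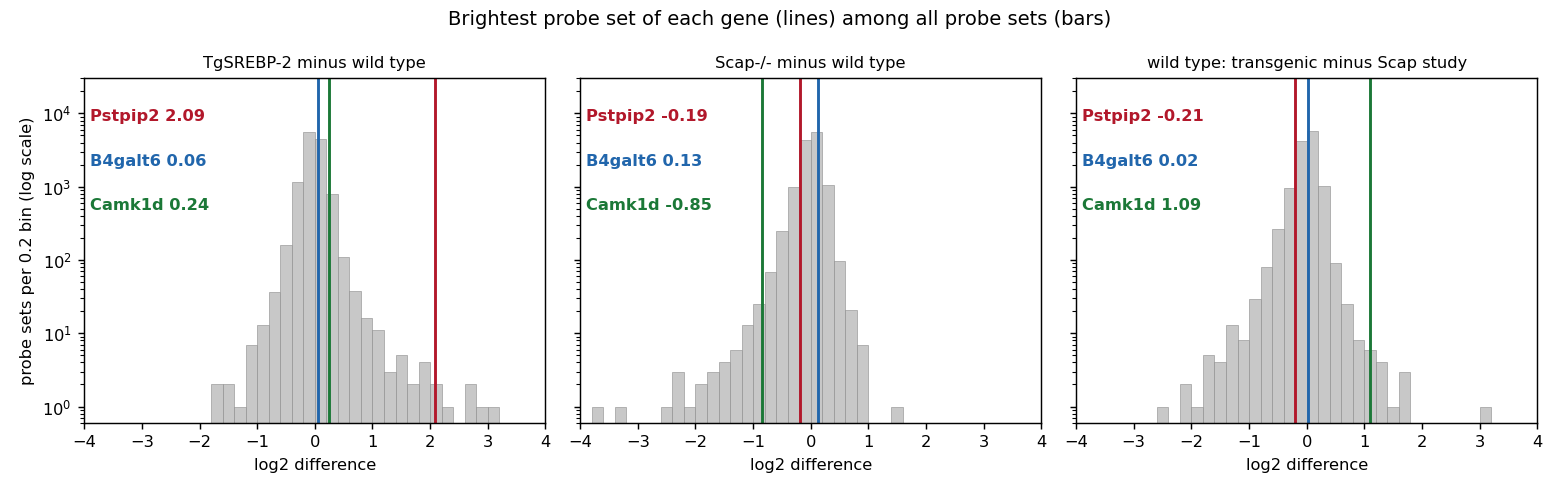
Log2 differences of all 12411 probe sets (grey bars, number of probe sets per bin on a log axis) with the brightest probe set of Pstpip2, B4galt6 and Camk1d as lines, in 3 comparisons without TgSREBP-1a. The genes were picked with earlier results of these data known, and TgSREBP-2 shares its wild type arrays with the comparison that served to pick them. Pstpip2 lies in the upper tail in TgSREBP-2 (2.09), Camk1d in the lower tail in Scap-/- (-0.85) and in the upper tail between the wild type pools (1.09), and B4galt6 in the centre of all 3.

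Counted over the 7 probe sets, 1 was called higher in TgSREBP-2 (Pstpip2 115818_at), where 0.338% of all probe sets were, and 4 lay above wild type without overlap, where 15.6% of all did. In Scap-/- 1 was called lower (Camk1d 163290_at), against 0.258% of all probe sets, and 3 lay below wild type without overlap, against 14.4% of all. Between the wild type pools 1 was called higher (Camk1d 163290_at), against 0.153% of all. TgSREBP-2 shares its wild type arrays with TgSREBP-1a, so a low reading of that pool would raise both differences. In the comparison that served to choose the genes, 1.36% of all probe sets were called higher and 19% lay above wild type without overlap, as all 7 did.

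Around B4galt6, no other measured gene of glycosphingolipid synthesis passed the test. Of 19 other listed genes 7 were measured, and Ugcg and St3gal5 were not among them. None of the 7 was called by limma in TgSREBP-1a (3 at an unadjusted p under 0.05), in TgSREBP-2 or in Scap-/- (0 in each). With 2.18%, 0.5% and 0.274% of all probe sets called there in either direction, none of 7 is close to the background. The median log2 difference of the 7 was -0.03, -0.06 and 0.06, against -0.02, -0.02 and 0.02 over all probe sets. B4galt5, which makes lactosylceramide as B4galt6 does, differed by 0.44 ± 0.14 in TgSREBP-1a on its brighter probe set (limma, adjusted p = 0.17) and by -0.02 ± 0.10 on the other. The sialyltransferase gene St3gal1 differed by -0.75 ± 0.18 there (limma, adjusted p = 0.064). B4galt2, B4galt4 and B4galt7, which galactosylate other acceptors, differed by -0.05, -0.23 and -0.09, and none of the 4 measured relatives of B4galt6 was called by limma in any of the 5 comparisons. Between the transgenic lines 1.86% of all probe sets were called in either direction, and between the wild type pools 0.508%, so none of 4 is close to the background.

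Further up the pathway, 19 of 41 listed symbols of ceramide and sphingomyelin metabolism were measured. Of these 1 rose in TgSREBP-1a, and none was called in TgSREBP-2 or Scap-/- by limma (0 at an unadjusted p under 0.05 in each). Over all probe sets 2.18%, 0.5% and 0.274% were called in these comparisons. The gene that rose was Kdsr, the reductase of the second step of ceramide synthesis. Its brightest probe set had log2 values of 8.80 and 8.68 in TgSREBP-1a liver and 8.11 and 8.12 in wild type liver, a rise of 0.63 ± 0.10 (limma, adjusted p = 0.0067). Its other probe sets differed by -0.09 and -0.02, and the call ended without the first TgSREBP-1a array or either wild type array. Acer2, an alkaline ceramidase, differed by 0.49 ± 0.11 (limma, adjusted p = 0.043), under the 1.5-fold limit. Against TgSREBP-2, Kdsr (0.63 ± 0.10, limma, adjusted p = 0.0077) and Acer2 (0.60 ± 0.11, limma, adjusted p = 0.018) were both called higher in TgSREBP-1a. Neither was called without the first TgSREBP-1a array or the first TgSREBP-2 array, and no fit with 1 of the 4 arrays left out called both. Of 17 listed symbols of glycosphingolipid breakdown 3 were measured. Among them Scarb2, the receptor that sorts glucocerebrosidase to lysosomes, fell in TgSREBP-1a by 0.75 ± 0.14 (limma, adjusted p = 0.015). That call ended without either TgSREBP-1a array or the first wild type array. None of these 3 was called in TgSREBP-2 or Scap-/- by limma (1 and 0 at an unadjusted p under 0.05).

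Around Camk1d, 18 of 33 other listed genes of the calmodulin-dependent kinase pathway were measured. None of them was called by limma in TgSREBP-1a (4 at an unadjusted p under 0.05), TgSREBP-2 (1) or Scap-/- (1). With 2.18%, 0.5% and 0.274% of all probe sets called there, none of 18 is close to the background. The median differences of the 18 were 0.06, -0.07 and -0.07. Camk2d, a subunit of CaM kinase II, differed by 0.55 ± 0.10 in TgSREBP-1a (limma, adjusted p = 0.012), which is under 1.5-fold, and by 0.04 ± 0.10 on its other probe set. Ppp3cb, a catalytic subunit of calcineurin, differed there by 0.48 ± 0.21 (limma, adjusted p = 0.46). Around Pstpip2, 13 of 32 other listed symbols of F-BAR genes and partners were measured, none of them a PEST-type phosphatase. None of the 13 was called by limma in TgSREBP-1a or Scap-/- (0 at an unadjusted p under 0.05 in each) or in TgSREBP-2 (2). With 2.18%, 0.274% and 0.5% of all probe sets called there in either direction, none of 13 is close to the background. Gas7, an F-BAR gene known from neurons, differed by 0.65 ± 0.13 in TgSREBP-2, which did not pass (limma, adjusted p = 0.066). It was the 1 gene of this list called between the transgenic lines, lower in TgSREBP-1a than in TgSREBP-2 (-0.75 ± 0.13, limma, adjusted p = 0.012), a call that ended without either TgSREBP-1a array or the first TgSREBP-2 array.

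**Figure D4:**
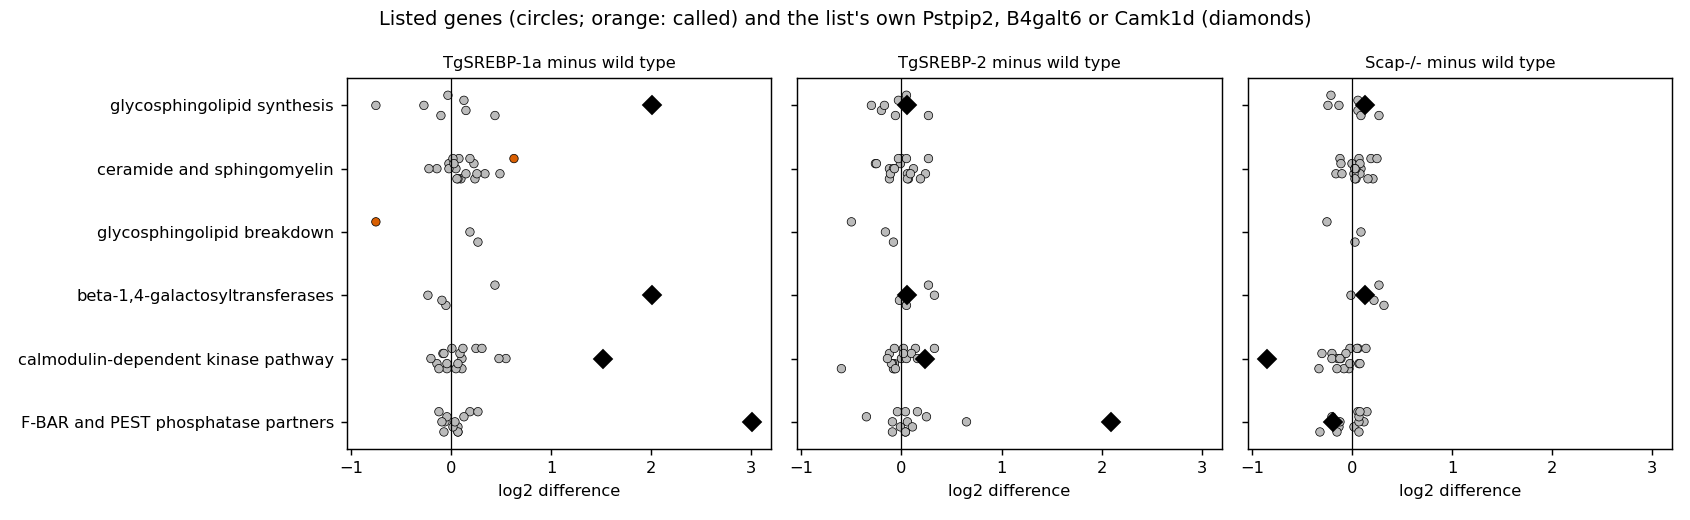
Log2 differences of the listed genes (circles, 1 brightest probe set per gene, orange where called) in TgSREBP-1a, TgSREBP-2 and Scap-/- against wild type, with Pstpip2, B4galt6 and Camk1d as diamonds in their own lists. The diamonds stand at 3.01, 2.01 and 1.52 in TgSREBP-1a, where the listed genes lie between -0.75 and 0.63 and 2 of them, Kdsr and Scarb2, were called.

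Other cell type markers moved with TgSREBP-1a, in which all 3 genes were high. The mean log2 value per array of 6 hepatocyte markers was 9.41 to 9.57 in TgSREBP-1a and 10.50 to 10.83 in wild type. Among them C8a (-2.60), C8b (-2.22) and Itih4 (-1.51) fell. The other 3, Apoa1, Hnf4a and Ttpa, were not called, and the highest difference of the 6 was 0.11. For 9 endothelial markers the mean was 7.17 to 7.22 in TgSREBP-1a and 6.79 to 6.87 in wild type. Lyve1 and Heg1 rose, and the other 7 were not called. The mean of 3 pancreatic acinar markers was 6.07 to 6.11 in TgSREBP-1a and 8.84 to 9.17 in wild type. Cpb1 (-4.67) and Cela3b (-3.84) fell, and Ctrc (-0.22) was not called. Of 5 stellate cell, 2 cholangiocyte and 2 lymphocyte markers none was called there by limma (1, 0 and 0 at an unadjusted p under 0.05). Over all probe sets 2.18% were called in that comparison. The part of these cells in the values of Pstpip2, B4galt6 and Camk1d was not tested.

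Genes whose values followed each of the 3 most closely were taken by Pearson's r over the 10 arrays, which share 5 pools, among probe sets with 1 symbol whose group means spanned at least 1 log2 unit. For Pstpip2, of 298 such probe sets, these were Acsl3 (r = 0.97), an acyl-CoA synthetase, Chrna4 (0.969), a nicotinic receptor subunit, Dpysl2 (0.968), a microtubule-binding protein, Rassf7 (0.964) and Fam126a (0.96). All 5 stood higher in both transgenic pools than in wild type, Dpysl2 by 2.01 in TgSREBP-1a and 1.81 in TgSREBP-2 and Acsl3 by 2.18 and 1.24. Their likeness to Pstpip2 served to pick them, so these rises follow from the choice.

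For B4galt6 they were Rassf6 (0.993), Mbnl3 (0.982), an RNA-binding protein, Slc39a5 (0.979), a zinc transporter, and Ppp2r5b on both of its probe sets (0.985 and 0.979), a regulatory subunit of protein phosphatase 2A. They stood above wild type by 1.04 to 1.54 in TgSREBP-1a and by -0.09 to 0.17 in TgSREBP-2, a pattern shared with B4galt6 by choice. For Camk1d they were the desaturase gene Fads2 on both probe sets (0.96 and 0.953), Mylip (0.959), which marks the LDL receptor for breakdown, Lpin2 (0.958), a phosphatidate phosphatase, and the nuclear receptor gene Rora (0.935). Having been taken for a likeness over the same arrays, they share Camk1d's pattern by choice. In Scap-/- their differences from wild type were -1.38 and -1.13 for Fads2, -0.73 for Rora, -0.32 for Mylip and -0.28 for Lpin2, whose arrays overlapped between the groups. Lpin2 and Rora, like Camk1d, stood higher in transgenic-study than in Scap-study wild type liver, by 1.20 and 0.77, whereas Fads2 differed there by 0.14 and 0.08.

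**Figure D5:**
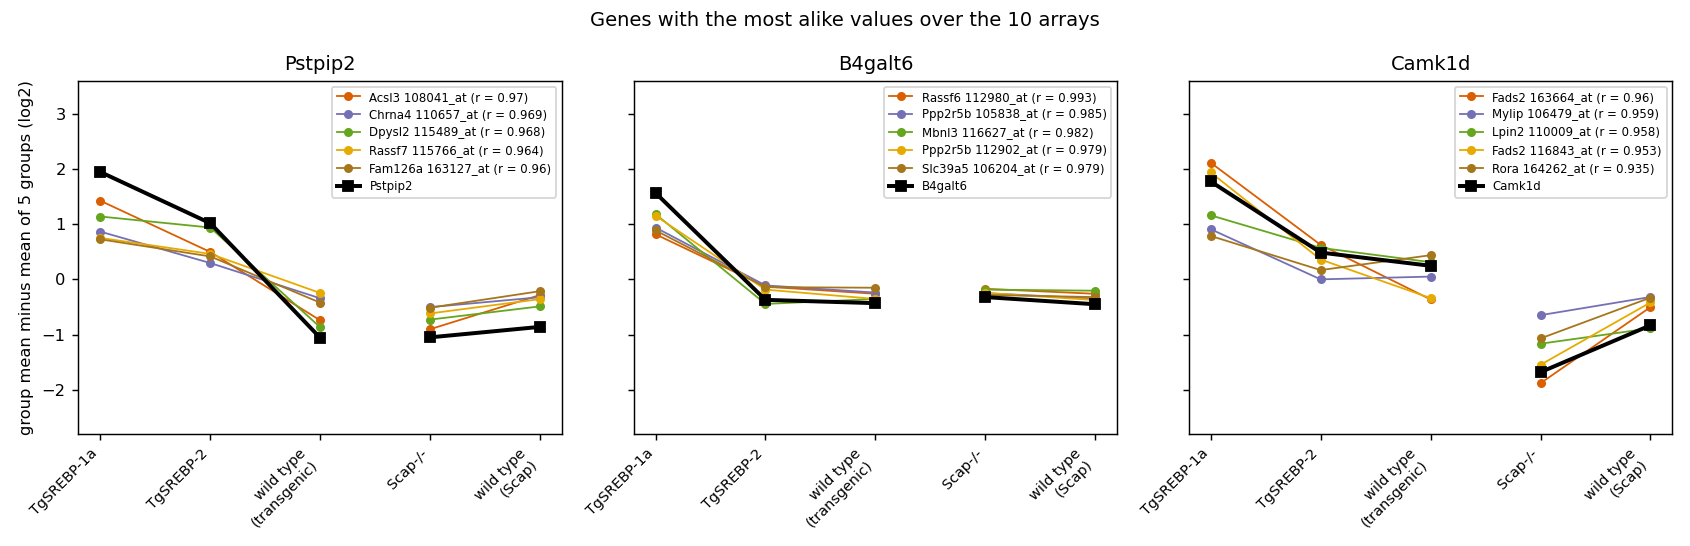
Group means of Pstpip2, B4galt6 and Camk1d (black squares) and of the 5 probe sets most like each (coloured), as log2 values minus the mean of the 5 groups, with Pearson's r over the 10 arrays in the legends. Pstpip2's panel steps down from TgSREBP-1a over TgSREBP-2 to wild type, B4galt6's panel is high in TgSREBP-1a alone, and Camk1d's panel is lowest in Scap-/-.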

How the data were processed

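The authors deposited log2 expression values of 10 MG_U74Bv2 arrays, made with RMA per the submitters' processing notes (version not given), which corrects the background, normalizes between arrays and summarises each probe set. No genome build is stated. From 12477 probe sets, 66 controls were dropped. Symbols came from the platform annotation: 10581 probe sets had 1 symbol, 178 several and 1652 none.

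Differences between groups came from limma 3.58.1 (lmFit, eBayes; R 4.3.3), with all 10 arrays and 5 groups in 1 model and a common estimate of error. Adjusted p-values are two-sided Benjamini-Hochberg values over 12411 probe sets. Counts at an unadjusted p under 0.05 are given without a share over all probe sets. They therefore do not show whether a list lies above or below the background. The number of arrays limits the precision. For listed genes the probe set brightest on average was used. The fit was tested on simulated data.

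The members and the 15 gene lists were chosen with earlier results of these data known. Named besides the members are relatives, up to 6 genes per pathway list (called ones first), called markers, and the 5 probe sets most like each member. Alternatives varied the arrays in the fit, a replicate block, the moderation, a filter on dim probe sets, scaling, array weights and the probe sets of a gene.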

Additional observations from a re-analysis of the deposited data

How the results depend on the processing

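The directions held in all alternatives for the differences of Pstpip2 115818_at in both transgenic lines, of B4galt6 117049_at in TgSREBP-1a and of Camk1d 163290_at in every comparison. The rise of Pstpip2 in TgSREBP-2 passed the test in all 12. With only the 4 arrays of a comparison in the fit, 5 probe sets in place of 34 were called in Scap-/- and 13 in place of 63 between the wild type pools, and Camk1d (-0.85 and 1.09, as before) passed in neither (limma, adjusted p = 0.53 and 0.13). With array weights it did not pass in Scap-/- (-0.85, limma, adjusted p = 0.06). With the mean of all probe sets of a gene, the differences in TgSREBP-1a were 1.62 for Pstpip2, 1.10 for B4galt6 and 1.05 for Camk1d, those from TgSREBP-2 were 0.44, 1.03 and 0.75, and Camk1d read -0.51 in Scap-/-. These means include the dimmer probe sets.

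With 1 array left out, the difference of B4galt6 ranged from 1.85 to 2.16 against wild type and from 1.79 to 2.10 against TgSREBP-2, that of Camk1d from -1.07 to -0.62 in Scap-/- and from 0.86 to 1.32 between the wild type pools. A lone array was then assumed to vary like the other groups. The counts called were 142 to 193 in TgSREBP-1a (270 with all arrays), 25 to 124 in TgSREBP-2 (62), 10 to 68 in Scap-/- (34), 87 to 384 between the lines (231) and 14 to 120 between the wild type pools (63). The lowest count in TgSREBP-2 came without the first wild type array and the highest without the second TgSREBP-2 array.

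The hybridisation number as a replicate block gave 101 calls in TgSREBP-2, 91 in Scap-/- and 145 between the wild type pools, and changed no call of the 7 probe sets. The labels tie this number to no batch, and deviations of same-numbered arrays correlated at -0.167 to 0.598 between groups. Of 235 values of the brightest probe sets and of counts called, 33 moved and 9 no longer passed the test, and of 570 values of dimmer probe sets and gene lists 31 moved. The cause of these changes was not tested.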

Other observations

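Genes that share the Camk1d letters TCACNCCAC in a promoter window were counted as a description, since that motif was looked up with the results for Camk1d known. Besides the 3 genes, 91 such genes were measured. In TgSREBP-1a 5 of them were called higher, or 5.49%, against 1.78% of 7542 genes, and none was called lower. They were Aldh9a1, an aldehyde dehydrogenase, Brd1, Echdc1, the glutathione transferase gene Gstm7 and Spag9, named after their values were seen. The 7542 genes include some without a promoter window, such as Pstpip2 and B4galt6. Against TgSREBP-2, 4 of the 91 were called higher in TgSREBP-1a and 1 lower (4.4% and 1.1%, against 1.47% and 0.782% of all genes). Of the genes most like Pstpip2, B4galt6 and Camk1d, 4 each had a window, and none of these windows held the letters. In TgSREBP-2 and in Scap-/- none of the 91 was called by limma (7 and 8 at an unadjusted p under 0.05), where 0.385% and 0.0265% of all genes were called higher and 0.172% and 0.305% lower, so that none of 91 is close to the background.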
